A study of Mus musculus with 11 samples.

Results

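The genes described here are 9 regulators of cytosine methylation in DNA: the writers Dnmt1, Dnmt3a and Dnmt3b with the Dnmt1 recruiting factor Uhrf1, the erasers Tet1, Tet2 and Tet3, and the readers Mbd1 and Mbd2. They were chosen by name from the gene families, and each matched 1 of the 77179 gene identifiers of the expression table. The mice carried an eGFP-tagged ribosomal protein, Rpl10a, which Cre switches on in NEX (Neurod6) lineage neurons, the excitatory neurons of cortex and hippocampus, and the tagged ribosomes were pulled down (IP) so that ribosome-bound RNA of those neurons could be sequenced. Cortex and hippocampus were processed together. The 11 libraries comprised whole-tissue input at postnatal day 7 (P7, n = 2) and IP at P7, P14 and P21 (n = 3 each), labelled as biological replicates. All IP libraries and input replicate 1 came from NEX-Cre;Rpl10aeGFP/eGFP mice, and input replicate 2 came from Rpl10aeGFP/eGFP mice without Cre, so every animal carried the tagged allele. Input was sequenced at P7 alone, so levels in IP can be set against whole tissue at that age only. The labels used here name neither the number of animals behind a library nor their sex.

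Cytosines followed by guanine are methylated by DNA methyltransferases. Dnmt1, brought to freshly replicated DNA by Uhrf1, copies the pattern of the old strand onto the new one, whereas Dnmt3a and Dnmt3b methylate sites anew. The Tet enzymes oxidise methylcytosine, a step towards its removal, and Mbd proteins bind methylated DNA and bring in co-repressors. In neurons, which no longer divide, methylation outside the CG context is laid down after birth, and Dnmt3a is the enzyme known for it.

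Values are in TPM, a relative transcript level corrected for transcript length. A gene was tested when it reached 1 TPM in at least 2 libraries. Of the 9 genes, 8 passed among 19008 tested, and Dnmt3b did not. Uhrf1 passed through its 2 input libraries alone, so its difference between input and IP was bound to be large and is given as a description. Differences are limma estimates on log2(TPM + 1) ± SE, with p-values adjusted over all tested genes and a threshold of 0.05, and such log2 differences understate the change of genes near 1 TPM.

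Sequence from RefSeq (GRCm38.p6) was at hand for the start sites of 7 of the 9 genes, 12 windows of the 250 bases before a start. The windows shown are, for the writers Dnmt1 and Dnmt3a and for Uhrf1, the recruiting factor of Dnmt1, the one of each gene with the most CG dinucleotides. Each of these genes has more than 1 annotated start site, and distances below are to the site that the printed window precedes. That site need not be the main one. The printed Dnmt1 and Uhrf1 windows lie downstream of the other start sites at hand for these genes. The printed Dnmt3a window spans another Dnmt3a start site, which follows chr12:3806730-3806979. The replication-linked pair Dnmt1 and Uhrf1 come first, from chr9:20952624-20952873 (minus strand) and chr17:56304063-56304312 (plus strand), with the letters of an E2F motif in capitals. Dnmt3a follows, from chr12:3806910-3807159 (plus strand), with GC boxes in capitals.
Dnmt1: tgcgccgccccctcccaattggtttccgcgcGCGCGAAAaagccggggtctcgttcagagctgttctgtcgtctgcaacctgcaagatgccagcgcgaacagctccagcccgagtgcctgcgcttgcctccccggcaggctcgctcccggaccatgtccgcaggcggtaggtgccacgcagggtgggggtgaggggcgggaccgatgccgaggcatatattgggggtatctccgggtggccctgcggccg
Uhrf1: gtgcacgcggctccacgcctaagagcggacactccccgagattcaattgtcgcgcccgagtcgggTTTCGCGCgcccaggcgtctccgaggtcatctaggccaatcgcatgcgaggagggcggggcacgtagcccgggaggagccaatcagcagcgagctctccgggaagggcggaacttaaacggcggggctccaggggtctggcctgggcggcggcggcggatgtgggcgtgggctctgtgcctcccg
Dnmt3a: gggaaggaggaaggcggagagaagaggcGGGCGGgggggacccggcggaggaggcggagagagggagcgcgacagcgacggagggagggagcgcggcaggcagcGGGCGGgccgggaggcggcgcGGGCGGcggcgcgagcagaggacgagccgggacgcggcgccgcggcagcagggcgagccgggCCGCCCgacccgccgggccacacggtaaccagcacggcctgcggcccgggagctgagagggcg
The E2F letters searched were TTTCGCGC and TTTGGCGC on both strands. They stood in 0.654% of all 32851 windows of this length, once in the Dnmt1 window (219 bases before the start) and once in the Uhrf1 window (185 bases before it), and in none of the other member windows. These matches overlapped no other motif searched. GC boxes (GGGCGG, both strands) stood in 32.7% of all windows, and the Dnmt3a window held 4. The letters CCAAT stood in 33.8% of all windows and appear in windows of Dnmt1, Uhrf1 and Tet3. The cAMP response element (TGACGTCA, 1.55% of all windows) was in no member window. The windows printed held 26 CG dinucleotides for Dnmt1, 30 for Uhrf1 and 40 for Dnmt3a, the Tet2 window held 51, and the median over all windows was 6. A match is a run of letters and not a binding site.

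The IP libraries differed from input as a whole. Within groups, libraries correlated at r of 0.988 to 0.994 over tested genes, and input with P7 IP at 0.927 to 0.933. The tagged gene Rpl10a read 996 and 487 TPM in input and 2149 to 3814 in IP. Genes at 1 TPM or more numbered 17784 and 17793 in input and 15154 to 15658 in IP. Of the 19008 genes tested, 9718 were lower and 3541 higher in P7 IP than in input. This split rests on the TPM scale: with libraries scaled by median-of-ratios, 6147 were lower and 6250 higher, and with quantile normalisation 6025 and 6256. The median gene stood at -0.33 (log2) in IP relative to input on the TPM scale, and the differences below are to be read against that shift.

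**Figure D1:**
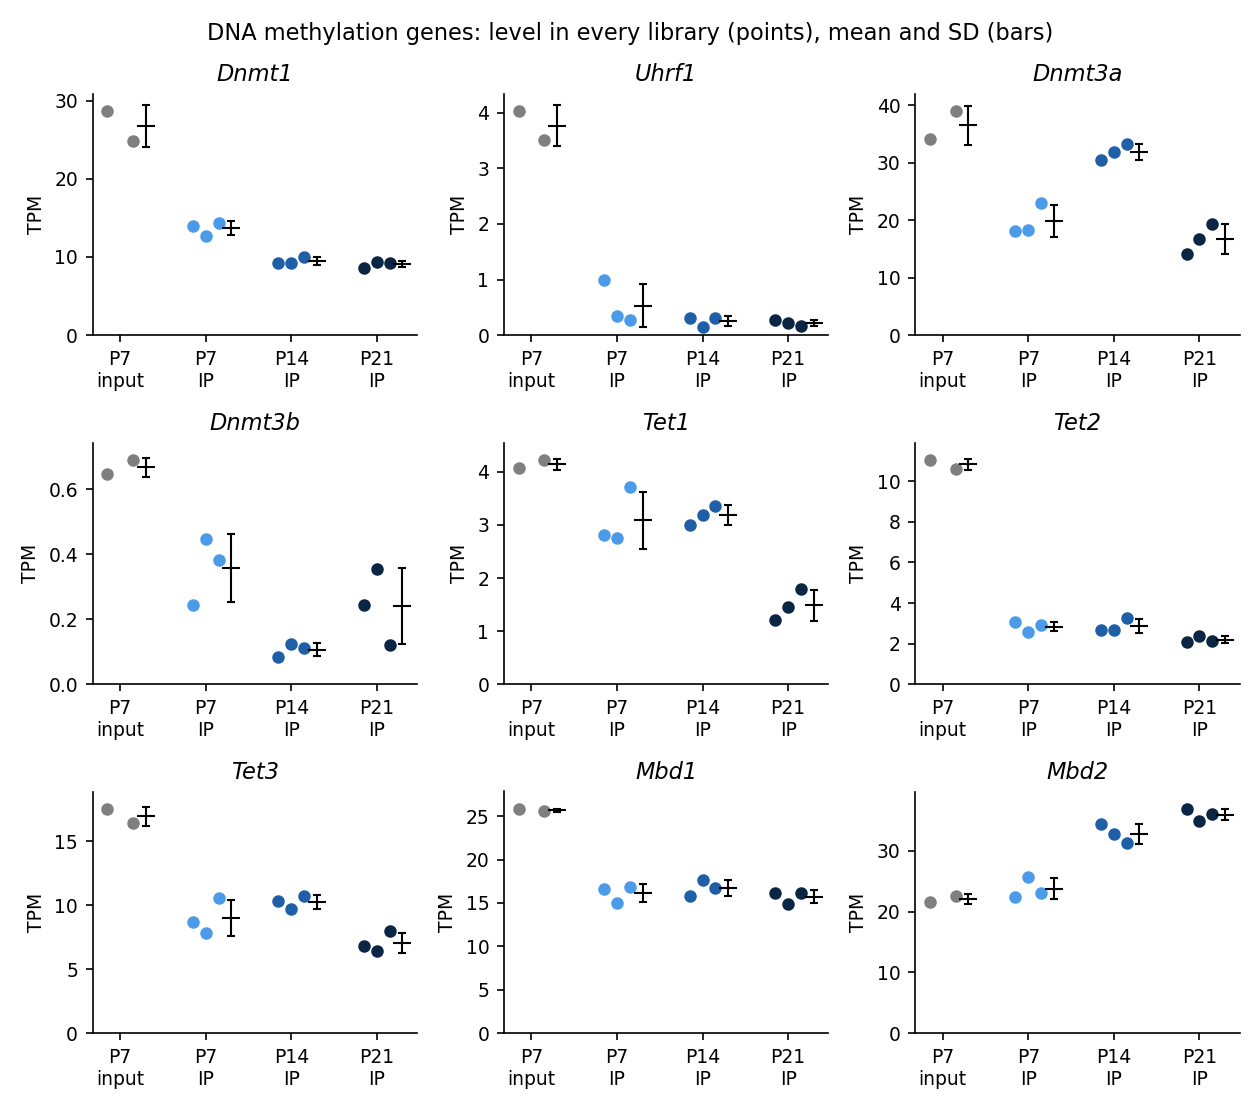
Level of each gene in TPM (vertical axis, from 0) in every library, grouped by input or IP and age. Points are libraries, horizontal ticks group means and bars SD (n = 2 for input, n = 3 for IP). Dnmt3a is highest among the IP groups at P14, Dnmt1 is lower at P14 and P21 than at P7, and Mbd2 is higher.

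In P7 IP, 7 of the 8 tested genes were lower than in input and 0 higher, beside 51.1% of all tested genes lower and 18.6% higher. Uhrf1 is in that count although the filter fixed its direction. Without the genes that were under 1 TPM in every IP library, 6 of 7 members were lower, beside 47.8% of the 17784 genes left. Uhrf1 and Tet2 lay furthest below whole tissue, at 14.1% and 26.2% of the input mean. The Uhrf1 share rests on P7 IP replicate 1 and was 8.11% without it. Dnmt1 (51.3%), Tet3 (53.2%), Dnmt3b (53.5%) and Dnmt3a (54.3%) stood close to one another. Mbd1 was at 62.8%, Tet1 at 74.5% and Mbd2 at 107.7%, and the median of all tested genes was 75.3%. In bulk RNA of this kind, fewer cells of a type and less RNA per cell cannot be told apart. IP holds ribosome-bound RNA and input RNA of the whole lysate, so a difference in ribosome binding cannot be told apart from these either.

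Markers of other cells were depleted in the same libraries. All 10 astrocyte, 10 inhibitory neuron and 17 tested proliferation genes were lower in P7 IP, beside 51.1% of all tested genes. However, 6 of the proliferation genes, like Uhrf1, had passed the filter through input alone. The summed level of the 10 astrocyte markers was 3194 to 3527 TPM in input and 155 to 216 in P7 IP, that of 10 oligodendrocyte markers 198.5 to 267 and 32.5 to 36.5, and that of 18 proliferation genes 185 to 188 and 80.5 to 85.9. None of these markers was at 0 in every library. The median marker of astrocytes was at 8.10% of input, of inhibitory neurons at 9.27%, of microglia at 5.13% and of proliferating cells at 25.8%, and that of excitatory neurons at 120%. Uhrf1 was the only one of the 9 genes below the oligodendrocyte median of 14.7%, and Tet2 lay next to the proliferation median. Proliferation genes ranged widely, from 1.76 to 70.5%, which also takes in Dnmt1, Tet3, Dnmt3b, Dnmt3a and Mbd1. The part of other cells in these differences was not tested.

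**Figure D2:**
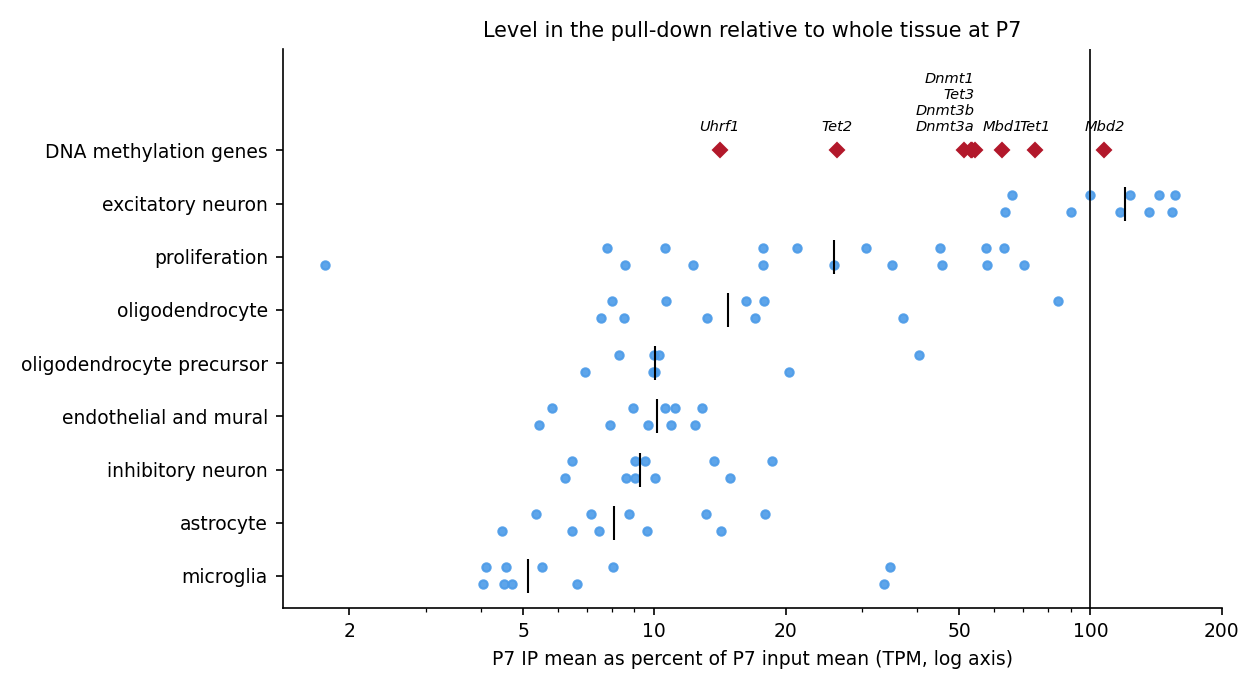
Mean level in P7 IP as a percent of the P7 input mean (horizontal log axis), for the 9 DNA methylation genes (diamonds, named) and for the genes of each marker list (dots; short vertical bars are list medians). The long vertical line marks equal levels. Uhrf1 is at 14.1%, Tet2 at 26.2% and Mbd2 at 107.7%. Proliferation genes span 1.76 to 70.5%, a range that holds Uhrf1, Tet2, Dnmt1, Tet3, Dnmt3b, Dnmt3a and Mbd1. Excitatory neuron markers span 63.7 to 157%, a range that holds Tet1 and Mbd2.

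Among the writers, Dnmt1, the maintenance methyltransferase, read 28.6 and 24.8 TPM in the input libraries and 14.0, 12.7 and 14.4 TPM in P7 IP. At P14 its IP libraries held 9.22, 9.22 and 10.03 TPM, and at P21 8.65, 9.38 and 9.26 TPM. Every P7 IP library lay below both input libraries and above every later IP library, while P14 and P21 overlapped. Dnmt1 differed by -0.91 ± 0.08 (log2, adjusted p = 4.06e-06) between P7 IP and input. It fell by 0.49 ± 0.07 from P7 to P14 (adjusted p = 0.000315), with no difference past the threshold from P14 to P21 (-0.06 ± 0.07). At P21 its mean in IP was above that of 56.3% of tested genes.

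Uhrf1, which reads hemimethylated DNA and recruits Dnmt1, read 4.02 and 3.51 TPM in input. In P7 IP it stood at 0.984, 0.344 and 0.267 TPM, so replicate 1 was apart from the other 2. At P14 the values were 0.302, 0.152 and 0.301 TPM, and at P21 0.268, 0.217 and 0.173 TPM. No IP library reached 1 TPM, and the 3 ages overlapped. The log2 difference from input was -1.67 ± 0.18, and -1.87 without P7 IP replicate 1. Among ages no difference of Uhrf1 passed the threshold. Its partner Dnmt1 stood at 51.3% of input in the same libraries and Uhrf1 at 14.1%, and the difference between these shares was not tested.

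Dnmt3a, the main de novo methyltransferase of neurons after birth, passed the threshold in both weekly steps, as no other tested member did on the TPM scale (Mbd2 also did with median-of-ratios or quantile scaling). In IP it read 18.1, 18.3 and 23.0 TPM at P7, 30.4, 31.8 and 33.2 TPM at P14, and 14.2, 16.7 and 19.3 TPM at P21. All P14 libraries lay above all other IP libraries, while P7 and P21 overlapped. It rose by 0.66 ± 0.12 (log2) from P7 to P14 (adjusted p = 0.000789) and fell by 0.90 ± 0.12 from P14 to P21 (adjusted p = 0.000428). Both calls were made together, up and then down, for 3.18% of tested genes. The P21 level differed from P7 by -0.23 ± 0.12 (adjusted p = 0.11), which does not show that the levels are equal; the call was made without P21 replicate 3 (-0.34, adjusted p = 0.0291) and with the replicate number as a block (adjusted p = 0.0182), and over all alternatives adjusted p ran from 0.0182 to 0.375. Input at P7 read 34.0 and 38.9 TPM, above every IP library, and the P7 difference was -0.85 ± 0.13 (adjusted p = 0.000168).

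Because Dnmt1 fell while Dnmt3a rose, the makeup of the family changed at P14. Dnmt3a made up 58.3% ± 2.47 (SD, n = 3) of summed Dnmt TPM in P7 IP, 76.8% ± 0.42 at P14 and 64.0% ± 3.03 at P21, beside 57.1% in input. The ratio of Dnmt3a to Dnmt1 was 1.44 ± 0.15 at P7, 3.35 ± 0.09 at P14 and 1.83 ± 0.23 at P21. At P14 every library had a higher ratio than any library at another age. At P7 the ratio overlapped between input (1.19 and 1.57) and IP (1.29 to 1.60).

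Dnmt3b, the de novo enzyme best known from early embryos, was near the floor throughout. Input held 0.646 and 0.688 TPM. IP held 0.244, 0.445 and 0.382 TPM at P7, 0.0833, 0.123 and 0.110 TPM at P14, and 0.245, 0.354 and 0.122 TPM at P21. Every P14 library was below every P7 library, and P21 overlapped both. It never exceeded 1.42% of summed Dnmt TPM in any library, and it was not tested.

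**Figure D3:**
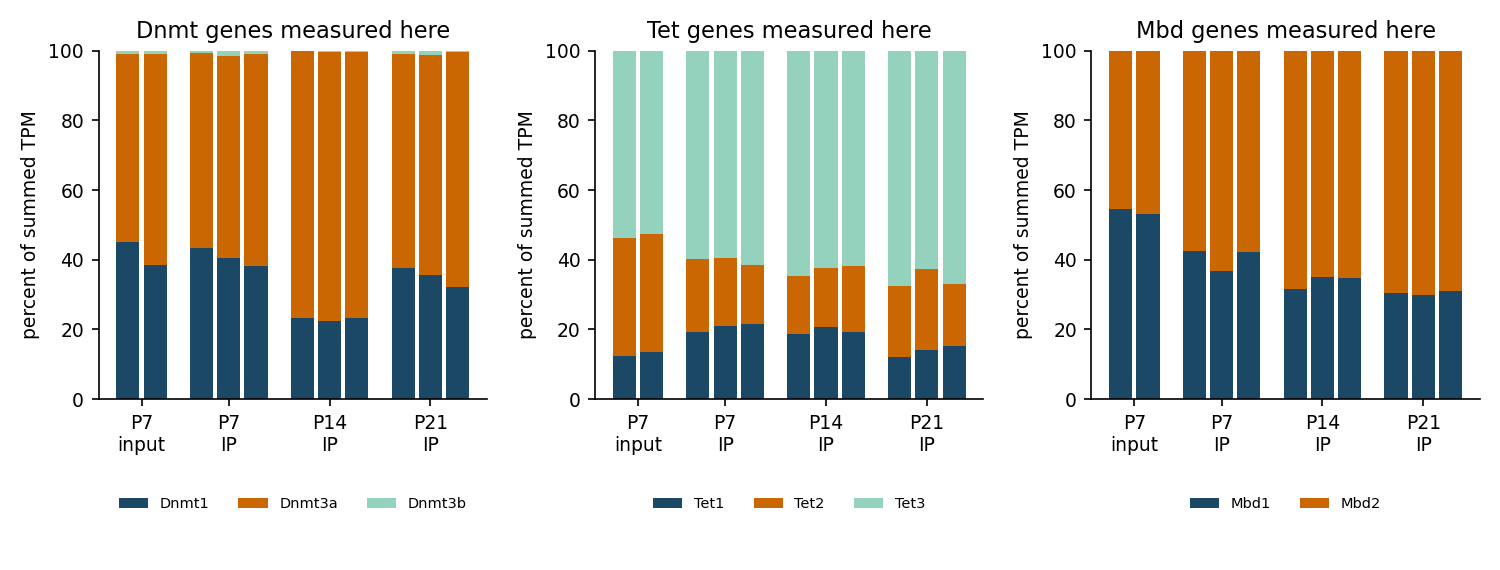
Share of each gene in its family's summed TPM (vertical axis, percent, from 0), for the Dnmt, Tet and Mbd genes measured here. Each stacked bar is 1 library, and libraries are grouped by input or IP and age. Dnmt3a averages 76.8% of the Dnmt sum at P14, and Tet2 takes 33.9% of the Tet sum in input and 19.1% in P7 IP.

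Among the erasers, Tet3 was the most abundant in every library. It read 17.5 and 16.4 TPM in input and 8.67, 7.82 and 10.6 TPM in P7 IP. At P14 it read 10.4, 9.68 and 10.7 TPM, and at P21 6.80, 6.40 and 7.96 TPM. Input lay above all IP libraries, P7 and P14 overlapped, and P21 lay below P14. Tet3 differed from input by -0.85 ± 0.12 (adjusted p = 9.18e-05) and fell by 0.49 ± 0.11 from P14 to P21 (adjusted p = 0.00715). From P7 to P14 the estimate was 0.18 (log2), and that rise passed without P7 IP replicate 3 alone (0.29, adjusted p = 0.0355, range over alternatives 0.0355 to 0.541).

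Tet1, which like Tet3 binds unmethylated CG through a CXXC domain, was low. Input held 4.07 and 4.22 TPM. IP held 2.81, 2.75 and 3.71 TPM at P7, 2.99, 3.19 and 3.36 TPM at P14, and 1.22, 1.45 and 1.80 TPM at P21. Every P21 library was below every P7 and P14 library, while P7 and P14 overlapped. Tet1 fell by 0.76 ± 0.12 (log2) from P14 to P21 (adjusted p = 0.00112) and by 0.72 ± 0.12 from P7 to P21 (adjusted p = 0.000334). Its difference from input was small, -0.34 ± 0.13 (adjusted p = 0.0387), and was lost in 10 of 20 alternatives. Median-of-ratios scaling gave -0.02 (adjusted p = 0.913) and quantile normalisation turned it to 0.26. Leaving out input replicate 1 gave -0.36 (adjusted p = 0.108), input replicate 2 -0.32 (0.149), P7 IP replicate 1 -0.29 (0.101), P7 IP replicate 2 -0.28 (0.112), P14 replicate 2 -0.34 (0.0520) and P21 replicate 2 -0.34 (0.0509). Adjusted p over all its alternatives ran from 0.00585 to 0.913.

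Tet2, which lacks a CXXC domain of its own, showed the widest gap between input and P7 IP among the erasers. Input held 11.0 and 10.6 TPM, and P7 IP held 3.05, 2.58 and 2.89 TPM. At P14 it read 2.68, 2.65 and 3.25 TPM, and at P21 2.07, 2.38 and 2.14 TPM. No IP library came near input, P7 and P14 overlapped, and P21 lay below both. From P14 to P21 the estimate of -0.27 ± 0.09 did not pass the threshold (adjusted p = 0.0519, range over alternatives 0.0340 to 0.178). The difference from input was -1.63 ± 0.10 (adjusted p = 3.39e-07). In summed Tet TPM, Tet2 took 33.9% in input and 19.1% ± 2.11 in P7 IP, whereas Tet1 took 13.0% and 20.6% ± 1.15.

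Over the 2 weeks from P7 to P21, Tet2 differed by -0.26 (adjusted p = 0.0294) and Tet3 by -0.31 (adjusted p = 0.0275). Both calls depended on settings and on single libraries. The Tet2 call was lost with median-of-ratios (-0.22, adjusted p = 0.0646) and quantile scaling (-0.22, 0.0589), and with the compared groups alone (0.0578). The Tet3 call was lost without the filter (adjusted p = 0.0658) and with the compared groups alone (0.0569). Tet2 gave -0.22 (adjusted p = 0.0911) without P7 replicate 1, -0.25 (0.0698) without P7 replicate 3, -0.23 (0.0871) without P21 replicate 1 and -0.25 (0.0674) without P21 replicate 3, with a range over all alternatives of 0.0169 to 0.0911. Tet3 gave -0.20 (0.102) without P7 replicate 3, -0.29 (0.0753) without P21 replicate 1 and -0.25 (0.0988) without P21 replicate 2, with a range of 0.00358 to 0.102. The sum of the 3 Tet genes was 14.95 ± 2.05 TPM at P7, 16.3 ± 0.95 at P14 and 10.7 ± 1.01 at P21, so that every P21 library was below every earlier one.

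Among the readers, Mbd2, a subunit that links methylated DNA to the NuRD co-repressor, was the only one of the 8 tested genes to rise from P7 to P21. Input held 21.5 and 22.6 TPM, and P7 IP 22.4, 25.7 and 23.1 TPM. At P14 it read 34.4, 32.7 and 31.2 TPM, and at P21 36.8, 35.0 and 36.05 TPM. P7 IP overlapped input, every P14 library was above them, and every P21 library was above every P14 library. It rose by 0.45 ± 0.06 (log2) from P7 to P14 (adjusted p = 0.000153) and by 0.58 ± 0.06 from P7 to P21 (adjusted p = 1.41e-05). The P14 to P21 estimate of 0.13 (adjusted p = 0.147) passed with median-of-ratios scaling (0.25, adjusted p = 0.0193) and quantile normalisation (0.21, adjusted p = 0.0302), and its adjusted p ran up to 0.369. In P7 IP it stood at 0.10 ± 0.07 relative to input (adjusted p = 0.22); relative to the shifted median gene it was higher, by 0.49 with median-of-ratios scaling (adjusted p = 0.000163) and 0.46 with quantile normalisation (adjusted p = 0.000149), and adjusted p ran from 0.000149 to 0.953.

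Mbd1, which binds methylated CG and also carries CXXC domains, stayed between 14.8 and 17.6 TPM in all 9 IP libraries. Input held 25.8 and 25.6 TPM. IP held 16.6, 14.98 and 16.8 TPM at P7, 15.8, 17.6 and 16.7 TPM at P14, and 16.2, 14.8 and 16.1 TPM at P21. All IP libraries were below input and the 3 ages overlapped. It differed from input by -0.64 ± 0.07 (adjusted p = 1.90e-05), and no difference among ages passed the threshold. The ratio of Mbd2 to Mbd1 went from 0.859 in input to 1.48 ± 0.21 in P7 IP, 1.97 ± 0.18 at P14 and 2.29 ± 0.06 at P21, and the ranges of these groups did not overlap.

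Counted by week, 2 of the 8 tested genes rose from P7 to P14 (Dnmt3a and Mbd2) and 1 fell (Dnmt1), beside 26.7% and 22.8% of all tested genes. From P14 to P21, 0 rose and 3 fell (Dnmt3a, Tet1 and Tet3), beside 8.53% and 19.7%. Across both weeks 1 rose (Mbd2) and 4 fell (Dnmt1, Tet1, Tet2 and Tet3), beside 27.3% and 32.6%. Over the 3 ages together, 6 of 8 passed limma's F test, beside 62.6% of tested genes, with Uhrf1 and Mbd1 the exceptions. The weekly steps share the P14 libraries, and the balance of the second week rests on the scale for the genome as a whole: 1621 genes rose and 3749 fell by TPM, 2732 and 2273 with median-of-ratios scaling, and 2290 and 2662 with quantile normalisation. The falls of Dnmt3a, Tet1 and Tet3 from P14 to P21 passed under each of those scalings. That of Tet2 from P7 to P21 passed by TPM but not with median-of-ratios or quantile scaling.

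The second weekly step was also tested against the first. It differed for 4 of the 8 genes, beside 24.3% of all tested genes, and was higher for 1 and lower for 3, beside 7.46% and 16.8%. The step of Dnmt3a turned by -1.56 ± 0.20 (log2, adjusted p = 0.000707), from a rise to a fall. The steps of Tet1 (-0.80 ± 0.20, adjusted p = 0.0175) and Tet3 (-0.66 ± 0.19, adjusted p = 0.0257) were lower in the second week, and that of Dnmt1 was higher (0.43 ± 0.13, adjusted p = 0.0346), its fall lying in the first week. The Dnmt3a difference passed in every alternative tried, and the others lost the threshold when single libraries were left out. Those of Dnmt1 and Tet3 also lost it without the filter, and that of Tet3 with median-of-ratios scaling.

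**Figure D4:**
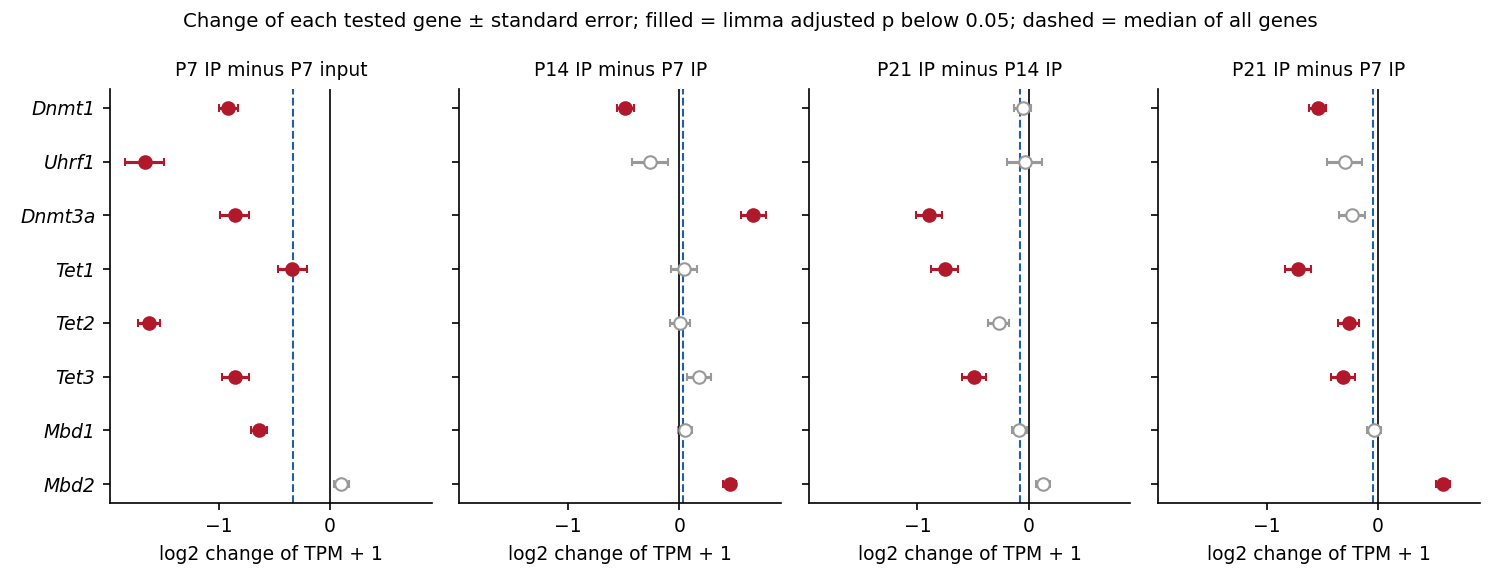
Log2 difference of each tested gene (horizontal axis, limma estimate on log2(TPM + 1), bars are SE) for P7 IP against input, P14 against P7, P21 against P14 and P21 against P7. Filled symbols passed an adjusted p of 0.05, and dashed lines mark the median of all tested genes. Dnmt3a moves by 0.66 and then -0.90 over the weekly steps, and Mbd2 is the only gene above 0 past the threshold from P7 to P21.

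Markers of other cells moved with age in the same IP libraries. Summed oligodendrocyte markers were 32.5 to 36.5 TPM at P7, 306 to 414 at P14 and 527 to 759 at P21, astrocyte markers 155 to 216, 367 to 435 and 492 to 645, and excitatory neuron markers 3377 to 3877, 6903 to 7745 and 8163 to 9221. From P14 to P21 all 10 oligodendrocyte markers rose, whereas 3 of 10 astrocyte markers (Apoe, Aldoc and S100b) rose and 7 did not pass, beside 8.53% of all tested genes rising. Summed oligodendrocyte precursor markers were 27.3 to 34.8 TPM at P7, 37.6 to 45.2 at P14 and 31.8 to 43.6 at P21, so P14 and P21 overlapped. Of those 8 markers, 5 rose and 2 fell from P7 to P14, beside 26.7% and 22.8% of all tested genes. From P14 to P21, 0 rose and 3 fell, beside 8.53% and 19.7%. Their courses were mixed. Among the IP groups, the means of Gpr17, Pdgfra and Cspg4 were highest at P14 and those of Olig1, Olig2 and Sox10 at P21. The means of Vcan and Lhfpl3 fell in both weeks. Gpr17, a receptor of cells turning into oligodendrocytes, averaged 2.71, 9.02 and 5.85 TPM. Summed proliferation genes went from 80.5 to 85.9 TPM at P7 to 58.4 to 65.3 at P14 and 51.9 to 53.4 at P21. Of 17 tested proliferation genes, 7 fell from P7 to P14 and 3 from P14 to P21, beside 22.8% and 19.7% of all tested genes. In either week 0 of them rose, beside 26.7% and 8.53%. The part of these cells in the changes with age was not tested.

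Some genes outside the 9 followed their pattern over the 11 libraries most closely. As a description over libraries that share 4 groups, the nearest genes with a mean of at least 5 TPM were Sugp2 (r = 0.995), Mta2 (0.994) and Clcn6 (0.992) for Dnmt1. Mta2 encodes a NuRD subunit. Dnmt3a was followed by Hspa12a (0.966), Ap2a2 (0.964) and Wdr77 (0.962), less closely than the other tested genes by theirs. Uhrf1 was nearest to Mettl17 (0.993), Tet1 to Cntn1 (0.987), Tet2 to Ccnl1 (0.994), Tet3 to Asap2 (0.987), Mbd1 to Sin3a (0.988) and Dnmt3b to Ybx2 (0.955). Mbd2 was nearest to Iqsec2 (0.994), Nrgn (0.992) and Pmepa1 (0.991). Nrgn, which encodes the postsynaptic protein neurogranin, averaged 2306 TPM in P7 IP, 4501 at P14 and 5414 at P21.

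Other genes of the reader families were measured as well: Mbd3, Mbd4, Mbd5, Mbd6, Uhrf2 and the zinc-finger genes Zbtb4, Zbtb33 and Zbtb38. They were listed by family, which does not mean that each binds methylated DNA. Of these 8 genes, 1 was higher and 6 lower in P7 IP than in input, beside 18.6% and 51.1% of all tested genes. From P7 to P14, 4 rose and 1 fell, beside 26.7% and 22.8%. From P14 to P21, 3 rose and 0 fell, beside 8.53% and 19.7%. The list's median log2 difference from P7 to P21 was 0.34, beside -0.04 over all tested genes. Mbd3, the NuRD subunit related to Mbd2, averaged 145 TPM in input and 233, 239 and 322 TPM in IP at P7, P14 and P21, a rise of 0.42 ± 0.06 (adjusted p = 0.000588) in the second week. Uhrf2, the relative of Uhrf1, differed by -0.98 ± 0.06 from input (adjusted p = 1.72e-07) and rose by 0.50 ± 0.05 from P7 to P14 (adjusted p = 1.62e-05). Mbd5 rose by 0.60 ± 0.07 from P7 to P21 (adjusted p = 1.96e-05), and Zbtb4, a zinc-finger methyl reader, by 0.69 ± 0.07 (adjusted p = 9.93e-06). The split against input moved with scaling, to 2 higher and 4 lower with median-of-ratios and 3 and 2 with quantile normalisation.

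Of 14 tested cofactors that recruit or regulate the writers, 1 rose and 6 fell from P7 to P14, beside 26.7% and 22.8% of all tested genes. From P14 to P21, 0 rose and 4 fell, beside 8.53% and 19.7%. Across both weeks 8 fell and 0 rose (8 and 1 with median-of-ratios or quantile scaling), beside 32.6% and 27.3%. Their median across both weeks was -0.34 beside -0.04 over all genes. Zfp57, a zinc-finger protein that protects methylation at imprinted genes, averaged 125 TPM in input and 39.6, 9.85 and 4.68 TPM in IP at P7, P14 and P21. It fell by 1.90 ± 0.15 in the first week (adjusted p = 2.75e-06) and by 0.94 ± 0.15 in the second (adjusted p = 0.00114). Kdm1b, a histone demethylase required for maternal imprints, fell by 1.55 ± 0.09 from P7 to P21 (adjusted p = 1.17e-07). Usp7, a deubiquitinase that binds Dnmt1 and Uhrf1, rose by 0.26 ± 0.07 from P7 to P14 (adjusted p = 0.00647).

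Partners of the Tet enzymes include CXXC proteins and the enzymes that make their cosubstrate. Of 13 tested, 4 rose and 5 fell from P7 to P14, beside 26.7% and 22.8% of all tested genes. From P14 to P21, 1 rose and 5 fell, beside 8.53% and 19.7%, and the falls numbered 3 with median-of-ratios scaling and 4 with quantile normalisation. Idh1, a maker of the Tet cosubstrate 2-oxoglutarate, averaged 142 TPM in input and 144, 26.2 and 12.9 TPM in IP, a fall of 3.37 ± 0.09 from P7 to P21 (adjusted p = 4.10e-09). Kdm2b, a CXXC protein of unmethylated CpG islands, averaged 49.997 TPM in input and 77.3, 17.1 and 9.69 TPM in IP, and fell by 2.88 ± 0.09 (adjusted p = 6.72e-09). Cxxc5, which is known to interact with Tet2, rose by 1.30 ± 0.07 over the same span (adjusted p = 8.20e-08). Ogt, the O-GlcNAc transferase that binds Tet2 and Tet3, stood at 75.7 TPM in input and 17.8 in P7 IP, a difference of -2.03 ± 0.09 (adjusted p = 3.81e-08).

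Of 20 NuRD and other co-repressor genes that act with methyl readers, 19 were lower in P7 IP than in input and 0 higher, beside 51.1% and 18.6% of all tested genes. The counts became 10 lower and 2 higher with median-of-ratios scaling and 15 and 0 with quantile normalisation. With age their directions were mixed: 6 rose and 5 fell from P7 to P14, beside 26.7% and 22.8% of all tested genes. From P14 to P21, 1 rose and 5 fell, beside 8.53% and 19.7%. With median-of-ratios scaling, 2 rose and 1 fell in that week. Sin3b fell by 1.00 ± 0.06 from P7 to P21 (adjusted p = 1.94e-07) and the deacetylase Hdac2 by 0.75 ± 0.05 (adjusted p = 6.73e-07). Tbl1xr1, a subunit of co-repressor complexes, rose by 0.51 ± 0.06 (adjusted p = 5.18e-05).

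Reads from genes that overlap the 9 on the genome could be shared with them, because the labels do not say how strand was treated in quantification. Annotation (GRCm38) places 7 noncoding genes over members, of which 4 had a row. The highest of these, B230319C09Rik over Tet3, reached 0.566 TPM, and Dnmt3aos over Dnmt3a reached 0.0211 TPM.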

How the data were processed

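RNA of tagged ribosomes (IP) and of whole tissue (input) was sequenced from 11 mouse libraries. The authors deposited 1 table of TPM values per gene; the submitters' processing notes name fastp 1.0.1, Salmon 1.10.0, DESeq2 1.46.0 and the build mm39, without their roles. No source used here gives the annotation release, the strand setting or how transcripts were summed. Since TPM keeps no read depth, depth is unknown and values carry no counting interval.

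Gene identifiers were matched to symbols (50886 of 77179; 2478 tested genes had none). From the deposited TPM, log2(TPM + 1) was fitted with limma 3.58.1 (R 4.3.3) over all 4 groups (7 residual degrees of freedom, trended prior), for genes of at least 1 TPM in at least 2 libraries. P-values were adjusted by Benjamini-Hochberg over 19008 genes, threshold 0.05, and the procedure was tested on simulated data. Figures used matplotlib 3.10.9 under Python 3.11.15. The members and the gene lists were chosen with earlier results of these data known. From each pathway list, the text draws on the 2 genes with the largest log2 difference in each direction among those past the threshold, and from the likeness ranking the 3 nearest genes. Lists are described by counts and medians and were not tested as sets. Promoter windows carry coordinates of GRCm38.p6, not of the build used for the table, and served for sequence only. Alternatives were pseudocounts of 0.1 and 5 TPM, no filter, a minimum mean of 5 TPM, scaling by median-of-ratios or quantiles, rescaling after removal of haemoglobin, ribosomal protein and mitochondrially encoded genes, no trend in the prior, a fit of the compared groups alone, a block for the replicate number, and leaving out each library.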

Additional observations from a re-analysis of the deposited data

Results flagged for a closer look

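For 4 of the 8 tested genes, beside 24.3% of all tested genes, the change from P14 to P21 differed from the change from P7 to P14 by a limma test of the difference between the steps. Dnmt3a differed by -1.56 (log2), having risen by 0.66 and then fallen by 0.90, with every P14 library above every other IP library; it passed in all 21 alternatives. Tet1 differed by -0.80, with its fall in the second week; the adjusted p of 0.0175 became 0.0593 without P14 replicate 2 (-0.79) and 0.0664 without P14 replicate 3 (-0.73), in a range of 0.00727 to 0.0664. Tet3 differed by -0.66 (adjusted p = 0.0257, range 0.00520 to 0.0911), which was lost without P14 replicate 1 (-0.65, adjusted p = 0.0805), replicate 2 (-0.74, 0.0504) or replicate 3 (-0.60, 0.0911) and without P21 replicate 2 (-0.61, 0.0517). The Tet3 call was also lost with median-of-ratios scaling (-0.52, adjusted p = 0.0529) and without the filter (0.0695). Dnmt1 differed by 0.43 (adjusted p = 0.0346, range 0.00791 to 0.121), its fall lying in the first week. That call was lost without P7 replicate 1 (0.42, 0.0620) or 3 (0.40, 0.0594), P14 replicate 1 (0.39, 0.117) or 2 (0.39, 0.121), or P21 replicate 2 (0.41, 0.0658) or 3 (0.42, 0.0537). It was also lost without the filter (0.0693). Mbd2, at -0.32 (adjusted p = 0.0544), passed without P7 replicate 2 (-0.38, adjusted p = 0.0237) and under the minimum mean of 5 TPM (adjusted p = 0.0412), in a range of 0.0237 to 0.363.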

How the results depend on the processing

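Of 973 values of the 48 member results under alternatives, 891 kept their direction and side of the threshold, 50 lost it, 11 gained it and 21 turned direction; 27 results never changed, among them the P7 IP differences of Dnmt1, Dnmt3a, Tet2, Tet3 and Mbd1 (that of Uhrf1 was fixed by the filter), both weekly steps of Dnmt3a, and the P7 to P21 changes of Dnmt1, Tet1 and Mbd2. Dnmt3b, and Uhrf1 in some alternatives, gave no value under the filters. Under the minimum mean of 5 TPM, 8265 genes and 4 members (lower) passed between P7 IP and input, and 2 members fell from P7 to P21; fewer genes were tested. Only the groups compared also gave 2 for that span, and leaving out a library gave 2 to 4, the low end without P7 IP replicate 3 or P21 replicate 1. Median-of-ratios and quantile scaling each made 1 member higher in P7 IP than input and 1 higher at P21 than P14, in both cases Mbd2. For the second step against the first, no filter left 0 members higher; leaving out a library gave 3012 (without P14 replicate 2) to 4707 genes, 0 to 1 members higher and 1 to 4 lower, and the split of 1418 genes higher and 3195 lower became 2247 and 2041 with median-of-ratios and 1976 and 2343 with quantile scaling. Every direction that turned belonged to an estimate not past the threshold, except Tet1 against input (0.26, quantile). With quantile scaling, from P7 to P14, Tet2 gave -0.0090 and Mbd1 -0.0015; from P14 to P21 Dnmt1 gave 0.033, Uhrf1 0.014 and Mbd1 0.024; Mbd1 gave 0.023 from P7 to P21 and 0.026 for the difference of steps. With median-of-ratios, Tet2 gave -0.031 from P7 to P14, Dnmt1 0.053 and Mbd1 0.029 from P14 to P21, and Mbd1 0.032 from P7 to P21 and 0.026 for the difference of steps. Rescaling after removal of haemoglobin, ribosomal protein and mitochondrially encoded genes gave Mbd2 -0.0051 against input and Tet2 -0.0085 from P7 to P14. Leaving out a library, P7 to P14 ran from -0.019 to 0.15 for Tet1, from -0.067 to 0.045 for Tet2 and from -0.00032 to 0.085 for Mbd1, and P7 to P21 from -0.084 to 0.0047 for Mbd1. The cause was not tested. Tet2 over the 3 ages lost its call in 13 of 20 alternatives (adjusted p 0.0213 to 0.131), among them leaving out either input library (0.0560, 0.0559), P7 IP replicate 1 (0.0626) or 3 (0.0624), P14 replicate 3 (0.0523), or P21 replicate 1 (0.131) or 3 (0.1001). Whether shared replicate numbers pair the samples could not be settled from the values. Deviations of same-numbered IP libraries correlated weakly, at 0.012 to 0.177, over 0.1 in 1 of 9 pairs, and 9 of 18 best matches had the same number. With the replicate block, 13349 genes passed against input, 9620 from P7 to P14, 5595 from P14 to P21 and 11570 from P7 to P21, beside 13259, 9414, 5370 and 11384 without it. For members the block added the fall of Dnmt3a from P7 to P21 and ended the call of Tet2 over the 3 ages (0.0526).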

Other observations

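Genes of the base excision steps that complete demethylation and genes that supply the methyl donor were also measured. Of 16 tested repair genes, 6 rose and 2 fell from P7 to P14 in IP, beside 26.7% and 22.8% of all tested genes, with a median log2 difference of 0.13 beside 0.03 over all. Gadd45a, a stress-induced gene linked to DNA demethylation, averaged 3.803, 12.5 and 16.6 TPM at P7, P14 and P21 and rose by 1.88 ± 0.10 (log2, adjusted p = 9.84e-08), and Gadd45b rose by 1.07 ± 0.13 (adjusted p = 3.74e-05). Tdg, the glycosylase that removes oxidised methylcytosine, fell by 0.30 ± 0.05 from P14 to P21 (adjusted p = 0.00108). Polb, the repair polymerase, averaged 59.3 TPM in input and 127 in P7 IP, 1.09 ± 0.06 higher (adjusted p = 2.05e-07).

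Of 17 tested genes of the methionine cycle, 14 were lower in P7 IP than in input and 0 higher, beside 51.1% and 18.6% of all tested genes. The counts were 11 and 2 with median-of-ratios scaling and 9 and 1 with quantile normalisation. From P7 to P14, 8 rose and 2 fell, beside 26.7% and 22.8%, with a median of 0.29 beside 0.03 over all tested genes. Mat2b, the regulatory subunit of the enzyme that makes S-adenosylmethionine, averaged 47.8, 105 and 124 TPM in IP at P7, P14 and P21 and rose by 1.36 ± 0.08 (adjusted p = 1.21e-07). Ahcyl2 rose by 1.54 ± 0.09 (adjusted p = 2.07e-07), while Mthfd2, a mitochondrial folate enzyme, fell by 1.31 ± 0.09 (adjusted p = 6.01e-07). Cbs, which diverts homocysteine out of the cycle, differed by -2.63 ± 0.19 between P7 IP and input (adjusted p = 7.71e-07).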
